A study of Mus musculus with 6 samples.

Results

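The genes described here load glutamate or GABA into synaptic vesicles, take GABA back up from the extracellular space, or carry glutamine, their common precursor, into neurons. They are Slc17a6, Slc17a7, Slc17a8, Slc32a1, Slc6a11, Slc6a13 and Slc38a1. They were chosen by symbol through the Ensembl gene identifiers, and all 7 had a row among the 21006 genes of each sample. The tissue was prefrontal cortex from male wild type C57BL/6 mice aged 18 months by their age label (their titles carry 17M), and mRNA was sequenced. The PND mice, n = 3, which model postoperative neurocognitive disorder, had isoflurane anesthesia at 1.5% for 30 min. An exploratory laparotomy followed, an operation of 30 min, also under isoflurane, that opens and inspects the abdomen. Lidocaine cream and povidone iodine were then put on the wound. The control (CON) group (n = 3) had neither anesthesia nor operation, so anesthesia, operation and wound care cannot be told apart. All mice went through behavioral tests, and tissue was taken after the last of them, the Barnes maze, under deep isoflurane anesthesia in both groups. In the PND mice this was days after the operation.

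Excitatory neurons pack glutamate with the vesicular glutamate transporters VGLUT1 (Slc17a7), VGLUT2 (Slc17a6) and VGLUT3 (Slc17a8). VGLUT1 is the main form of cortical pyramidal neurons, VGLUT2 that of thalamic and many other subcortical neurons, and VGLUT3 that of scattered neurons that mostly release another transmitter, such as the cholinergic interneurons of the striatum. The vesicular GABA transporter VGAT (Slc32a1) does this work in inhibitory neurons, Slc6a11 clears GABA into astrocytes, Slc6a13 is known from the leptomeninges, and Slc38a1 brings glutamine into neurons. A loaded vesicle and a cleared synapse thus depend on different members and different cells.

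The 3 vesicular glutamate transporters are close relatives that differ in base composition, and this is shown first because the levels of some members followed a GC trend of the samples. The sequences are the in-frame coding windows of 150 bases most alike between Slc17a7 and its relatives, with G or C at the third codon position in capitals (GENCODE M21 transcripts, GRCm38, 5′ to 3′).
Slc17a7: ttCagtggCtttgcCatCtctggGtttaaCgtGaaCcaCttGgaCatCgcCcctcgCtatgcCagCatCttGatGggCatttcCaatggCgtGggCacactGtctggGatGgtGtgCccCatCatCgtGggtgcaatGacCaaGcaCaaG
Slc17a6: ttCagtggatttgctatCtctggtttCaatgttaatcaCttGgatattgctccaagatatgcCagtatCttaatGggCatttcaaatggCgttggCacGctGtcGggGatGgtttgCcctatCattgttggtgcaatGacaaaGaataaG
Slc17a8: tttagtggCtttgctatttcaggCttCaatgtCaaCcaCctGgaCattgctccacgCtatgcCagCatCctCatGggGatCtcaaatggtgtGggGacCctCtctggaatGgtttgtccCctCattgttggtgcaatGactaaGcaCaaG
The Slc17a7 window lies in exons 11 to 12 of 13 (chr7:45172981-45173489, plus strand), that of Slc17a6 in exons 10 to 11 of 12 (chr7:51667496-51668033, plus strand) and that of Slc17a8 in exons 10 to 11 of 12 (chr10:89577901-89583417, minus strand), each with 1 intron between. Slc17a7 and Slc17a6 were identical at 124 of the 150 bases, and 24 of the 26 differences fell on the third codon position. G or C stood at that position in 38 of 50 codons of Slc17a7, 27 of Slc17a8 and 21 of Slc17a6. Over the whole coding sequence it was 73.2% for Slc17a7, 57.3% for Slc17a8 and 55.2% for Slc17a6. The other members reached 84.6% (Slc32a1), 75.6% (Slc6a11), 71.8% (Slc6a13) and 67.7% (Slc38a1).

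All members are protein-coding, and positions are those of GRCm38. Slc17a6 (ENSMUSG00000030500, chromosome 7, 51622006 to 51671119) and Slc17a7 (ENSMUSG00000070570, chromosome 7, 45163949 to 45176142) share a chromosome. Slc6a11 (ENSMUSG00000030307, 114131241 to 114249952) and Slc6a13 (ENSMUSG00000030108, 121300227 to 121337733) both lie on chromosome 6. Slc17a8 (ENSMUSG00000019935) lies on chromosome 10 (89574020 to 89621253), Slc32a1 (ENSMUSG00000037771) on chromosome 2 (158610767 to 158615748) and Slc38a1 (ENSMUSG00000023169) on chromosome 15 (96571418 to 96642913). Exons of Slc32a1 overlap those of the antisense gene Gm14205 over 697 bases. Transcripts of Slc17a8, Slc38a1 and Slc6a13 share stretches of 50 bases with transcripts of 52, 14 and 1 other genes, the last being Slc6a12. Since the use of strand and the handling of shared reads were not stated, the levels of these 4 genes are less certain.

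Levels are given as FPKM, fragments scaled to exon length and library size. The depth was not given, and steps in the low values put it between 7179964 and 9367951 fragments per sample. The labelled tissue carried its markers, and all 8 genes of the cortical excitatory neuron list (such as Camk2a, Neurod6 and Tbr1) were above 0.1 FPKM on average. Striatal markers were present as well, with summed levels of 225.9 to 272.7 FPKM in PND and 142.9 to 357.8 FPKM in CON. The lowest of these was CON replicate 2 and the highest CON replicate 3. Samples also differed in how levels depended on GC content, and the slope ran from -0.38 (CON replicate 1) to 0.30 (CON replicate 2) log2 units per 10 percentage points of GC.

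None of the 7 members differed between PND and CON by more than the spread between replicates. The comparison used limma on log2(FPKM + 0.1) for 18185 genes averaging 0.1 FPKM or more, and all 7 members were among them. The study's cut-off, an absolute log2 fold change above 1 with an unadjusted p below 0.05, was passed by 0 members, against 1.33% of all genes tested. An unadjusted p below 0.05 was found for 0 members, against 3.13% of all genes (1.73% higher and 1.40% lower in PND). The groups did not overlap in 0 members, against 7.66% of all genes (3.78% with PND above CON and 3.88% with PND below). The limma adjusted p (Benjamini-Hochberg over all genes) was 0.9999 for each member, and 0.0110% of all genes had one below 0.05. The median log2 fold change of the members was 0.09, and that of all genes was 0.01.

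**Figure D1:**
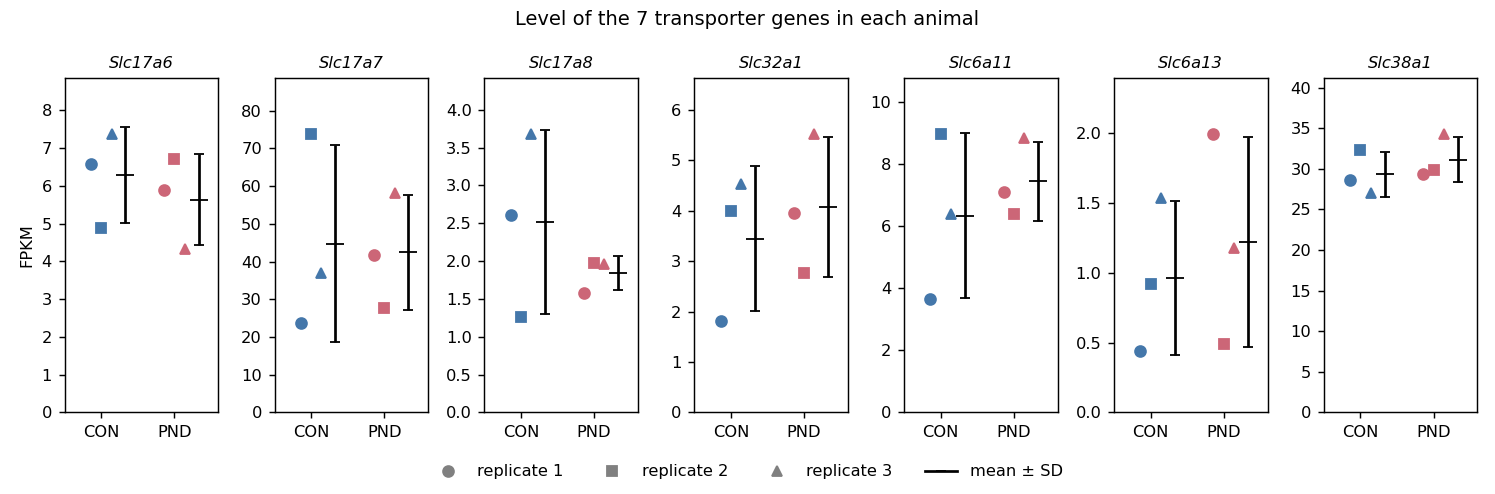
Level of each transporter gene (FPKM, vertical axes from 0, 1 panel per gene) in the 3 CON and 3 PND mice, with the replicate given by the symbol and bars for mean ± SD. The CON and PND points overlap in all 7 panels. In FPKM the spread is widest for Slc17a7, from 23.6 to 73.8 FPKM, both in CON. As a fold range it is widest for Slc6a13 (4.54-fold, against 3.13-fold for Slc17a7).

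Among the vesicular glutamate transporters, Slc17a7 was the most abundant in every sample. Its level was 41.7, 27.7 and 58.1 FPKM in PND replicates 1 to 3 and 23.6, 73.8 and 36.9 FPKM in CON replicates 1 to 3. The lowest and the highest sample were both CON, and the PND samples lay between them. The PND mean was 42.5 ± 15.2 FPKM (SD, n = 3 here and below) and the CON mean 44.8 ± 26.0 FPKM, with a log2 fold change of 0.02 (SE 0.43, 95% interval -0.98 to 1.02, limma adjusted p 0.9999). The interval reaches about 1 on the log2 scale in either direction, so changes smaller than that are not excluded. The summed levels of the 8 cortical excitatory markers ran from 213.3 to 252.4 FPKM in PND and 194.9 to 345.6 FPKM in CON, highest in CON replicate 2 and lowest in CON replicate 1, as for Slc17a7. Their part in the Slc17a7 levels was not tested.

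Slc17a6 was at 5.89, 6.71 and 4.32 FPKM in PND and at 6.58, 4.89 and 7.37 FPKM in CON. The order of the samples was close to the reverse of that of Slc17a7: CON replicate 2 and PND replicate 3, the highest for Slc17a7, were the lowest for Slc17a6. Its log2 fold change was -0.16 (SE 0.22, 95% interval -0.68 to 0.37). The ratio of Slc17a7 to Slc17a6 therefore varied widely, at 7.09, 4.13 and 13.5 in PND and 3.59, 15.1 and 5.01 in CON. Slc17a6 made up between 6.11% and 20.1% of the summed FPKM of the 3 vesicular glutamate transporters in CON and between 6.70% and 18.4% in PND. Among the thalamus markers, 5 of 6 were above 0.1 FPKM on average, and the summed list was highest in CON replicate 2 and PND replicate 3 (5.36 and 5.31 FPKM), the samples lowest for Slc17a6, and lowest in CON replicate 3 (2.81 FPKM), the highest for Slc17a6. It ran from 3.74 to 5.31 FPKM in PND and 2.81 to 5.36 FPKM in CON, and Prkcd was higher in PND (0.819 ± 0.0827 against 0.469 ± 0.0977 FPKM, unadjusted limma p 0.0375, adjusted p 0.9999). For the hypothalamus, septum and basal forebrain list, 7 of the 9 genes with a row were above 0.1 FPKM on average, and Gal, Pmch, Agrp and Pomc were listed at 0 in 3 or more samples. That list was at 5.40 FPKM in CON replicate 2 and between 13.4 and 18.5 FPKM in the other samples. The part of subcortical tissue in the Slc17a6 levels was not tested.

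Slc17a8 was at 1.58, 1.98 and 1.96 FPKM in PND and at 2.61, 1.26 and 3.68 FPKM in CON. The PND mice lay close together, and the CON mice lay on both sides of them. The PND mean was 1.84 ± 0.227 FPKM and the CON mean 2.52 ± 1.21 FPKM, with a log2 fold change of -0.32 (SE 0.37, 95% interval -1.18 to 0.55). The value turned on single CON mice: without CON replicate 2 it was -0.73 with an unadjusted p of 0.0194 (limma adjusted p 0.831), and without CON replicate 3 it was 0.01. The striatal list moved with Slc17a8, in that CON replicate 2 was lowest and CON replicate 3 highest in both, while CON replicate 1 ranked above all PND mice for Slc17a8 but below PND replicates 2 and 3 on the list. All 9 genes of that list (among them Drd1, Drd2, Adora2a, Ppp1r1b and Penk) were above 0.1 FPKM on average, and none was at 0 in 3 or more samples. Pde10a alone had an unadjusted limma p below 0.05 (13.1 ± 2.73 FPKM in PND against 8.52 ± 2.21 in CON, p 0.0278, adjusted p 0.9999). Whether striatal tissue in the dissection had a part in the Slc17a8 levels was not tested. In a bulk sample fewer cells of a type and less RNA per cell cannot be told apart.

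The vesicular GABA transporter Slc32a1 was at 3.96, 2.76 and 5.52 FPKM in PND and at 1.81, 3.99 and 4.52 FPKM in CON. CON replicate 1 was the lowest and PND replicate 3 the highest, and the others overlapped. The log2 fold change was 0.28 (SE 0.39, 95% interval -0.62 to 1.19). The GABA-synthesising enzymes of the same neurons were steadier or ordered differently. Gad1 averaged 29.9 ± 0.469 FPKM in PND against 28.6 ± 5.89 in CON (log2 fold change 0.08, unadjusted limma p 0.604), and Gad2 at 106.9 ± 16.7 and 100.4 ± 30.1 FPKM (0.13, unadjusted limma p 0.606). CON replicate 1, lowest for Slc32a1, had the highest Gad1 (34.97 FPKM). Of the 10 inhibitory neuron markers Dlx1 was lower in PND (0.177 ± 0.0750 against 1.01 ± 0.678 FPKM, unadjusted limma p 0.00517, adjusted p 0.9999). The other 9 markers had log2 fold changes from -0.06 (Lhx6) to 0.33 (Dlx2), 7 of them above 0, and unadjusted limma p-values of 0.389 or more. The summed list ran from 207.8 to 228.3 FPKM in PND and 197.7 to 220.03 FPKM in CON. Its part in the Slc32a1 levels was not tested. The ratio of Slc17a7 to Slc32a1 was 10.5, 10.03 and 10.5 in PND and 13.0, 18.5 and 8.16 in CON, values that are given without a test.

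Of the plasma membrane GABA transporters, the astrocytic Slc6a11 was at 7.09, 6.39 and 8.83 FPKM in PND and at 3.65, 8.96 and 6.37 FPKM in CON. Both the lowest and the highest sample were again CON. Its log2 fold change was 0.31 (SE 0.31, 95% interval -0.43 to 1.04). Of 8 astrocyte markers, Gfap was higher in PND (21.8 ± 3.65 against 13.6 ± 1.10 FPKM, unadjusted limma p 0.00294, adjusted p 0.9999) and Aqp4 lower (24.0 ± 2.14 against 30.8 ± 3.85 FPKM, unadjusted limma p 0.0275, adjusted p 0.9999). The summed list ran from 356.6 to 488.3 FPKM in PND and 305.7 to 605.9 FPKM in CON, and its part in the Slc6a11 levels was not tested.

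Slc6a13 had the lowest level of the members and the widest spread on the log2 scale. It was at 1.99, 0.492 and 1.18 FPKM in PND and at 0.439, 0.918 and 1.54 FPKM in CON, a 4.54-fold range. By the estimated depth these values rested on 9.53 to 51.3 fragments. The log2 fold change was 0.27 (SE 0.56, 95% interval -1.05 to 1.59). PND replicate 1 and CON replicate 3, the highest samples for Slc6a13, were also the highest for the summed leptomeningeal fibroblast list (21.3 and 19.6 FPKM). The other samples lay between 13.1 and 16.3 FPKM on that list and did not follow the order of Slc6a13. All 11 genes of the list (among them Dcn, Lum, Ogn, Fmod and Slc22a6) were above 0.1 FPKM on average, with sums of 13.1 to 21.3 FPKM in PND and 15.7 to 19.6 FPKM in CON. The part of attached meninges in the Slc6a13 levels was not tested.

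**Figure D2:**
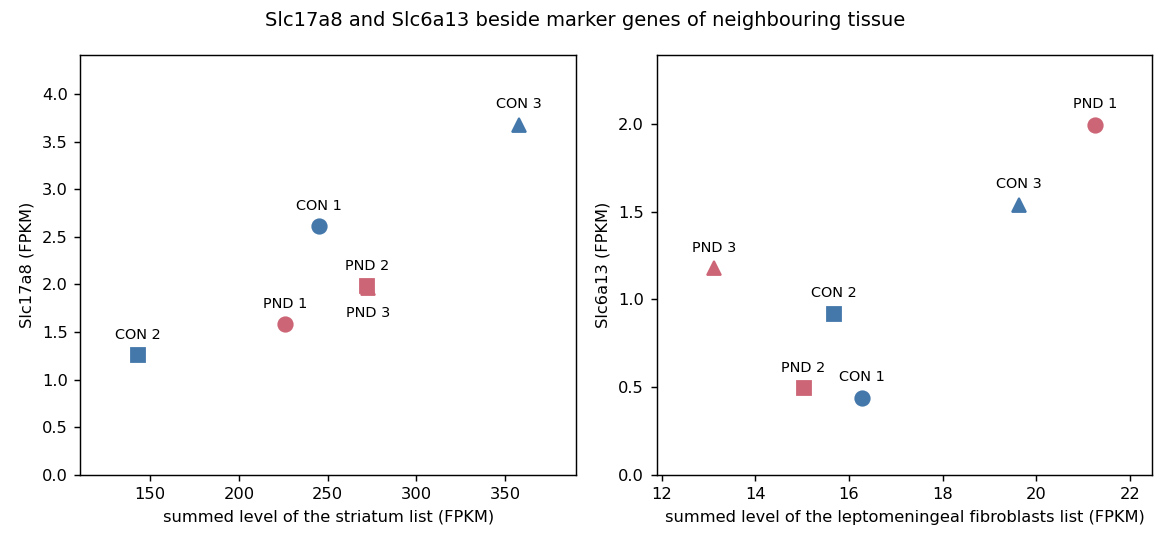
Level of Slc17a8 against the summed level of 9 striatal markers (left) and of Slc6a13 against that of 11 leptomeningeal fibroblast markers (right), 1 point per mouse, all in FPKM. CON replicates 2 and 3 mark the ends of the left panel, and PND replicate 1 and CON replicate 3 are highest on both axes of the right panel.

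Slc38a1, the glutamine transporter, was the steadiest member. It was at 29.3, 29.8 and 34.3 FPKM in PND and at 28.6, 32.3 and 27.0 FPKM in CON, a 1.27-fold range over the 6 mice. The groups overlapped, and the log2 fold change was 0.09 (SE 0.12, 95% interval -0.19 to 0.36). This interval was the narrowest of the 7 and excludes a change of 1 on the log2 scale in either direction, as that of Slc17a6 does.

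By mean level over the 6 samples the order was Slc17a7 (43.6 FPKM), Slc38a1 (30.2), Slc6a11 (6.88), Slc17a6 (5.96), Slc32a1 (3.76), Slc17a8 (2.18) and Slc6a13 (1.09). Only the step from Slc38a1 to Slc6a11 separated the ranges of neighbours. Slc17a7 exceeded Slc38a1 in 4 of 6 samples, and Slc6a11 exceeded Slc17a6 in 3 of 6. The remaining neighbours kept their order in 5 of 6 samples each, with overlapping ranges.

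The variation of the members among samples was then set against the GC slope of each sample, computed over 12316 other genes with at least 1 FPKM. The slope comes from the same 6 samples, so GC-rich genes in general tend to follow it and GC-poor genes to oppose it. The p-values below thus describe a trend across genes and not a trait of the members. The share of all genes passing the same test was not computed. Slc17a7, whose longest transcript has 56.6% GC, followed the slope in every step of the sample order (Pearson r = 0.98 and Spearman rho = 1, n = 6). Its exact permutation p, two-sided, was 0.00278 for both, the smallest that 6 samples can give, and 0.0194 after Benjamini-Hochberg adjustment over the 7 relations. Slc6a11 (53.9% GC) had r = 0.94 and rho = 0.94, with exact permutation p-values of 0.00556 and 0.0167 and adjusted values of 0.0194 and 0.0583. Slc32a1 (61.9% GC) had r = 0.86 and rho = 0.71, with exact permutation p-values of 0.0306 and 0.136 and adjusted values of 0.0713 and 0.191. Slc17a6 had the lowest GC content (42.9%) and a negative r of -0.79 (rho -0.71), with exact permutation p-values of 0.0722 and 0.136 and adjusted values of 0.126 and 0.191. For Slc17a8 (44.0% GC), r was -0.57 and rho -0.77, for Slc6a13 (54.7% GC) 0.60 and 0.49, and for Slc38a1 (48.5% GC) 0.70 and 0.66. The exact permutation p-values of these 3 genes were between 0.103 and 0.356, and the adjusted values between 0.152 and 0.356. Without CON replicates 1 and 2, the samples with the most extreme slopes, r was 0.999 for Slc17a7, 0.93 for Slc6a11, 0.90 for Slc32a1 and -0.87 for Slc17a6, but -0.23 for Slc17a8. The slope ran in both directions within both groups, and the labels gave no sequencing batch.

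When the GC trend of each sample was removed, the SD of Slc17a7 over the 6 samples fell from 0.62 to 0.31 on the log2 scale. That of Slc32a1 went from 0.56 to 0.29 and that of Slc6a11 from 0.46 to 0.27. The spread of Slc17a8 hardly moved (0.52 to 0.49), nor did that of Slc6a13 much (0.79 to 0.65). Slc17a6 (0.29 to 0.24) and Slc38a1 (0.12 to 0.10) also kept most of theirs. The median SD of all genes with at least 1 FPKM was 0.24 before correction. After it, the log2 fold changes lay between -0.30 (Slc17a8) and 0.24 (Slc6a11), and the smallest unadjusted limma p of a member was 0.230 (Slc6a11, adjusted p 0.999).

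**Figure D3:**
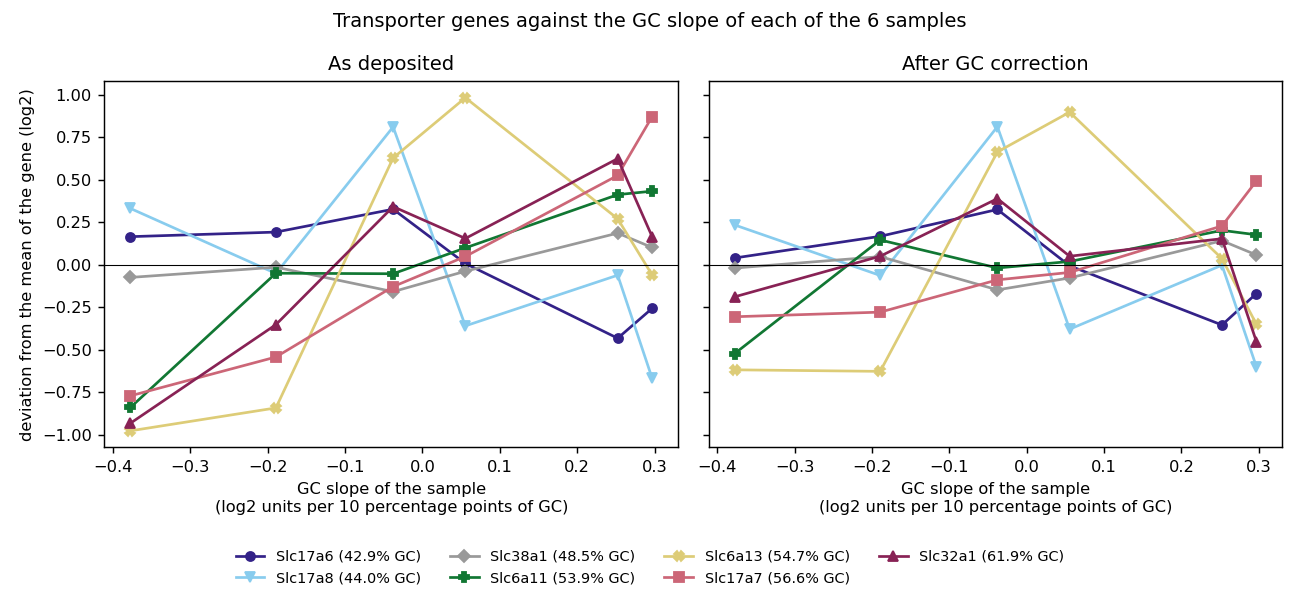
Deviation of each transporter gene from its own mean (log2, vertical axis) against the GC slope of the sample (log2 units per 10 percentage points, horizontal axis), 1 point per mouse, before (left) and after (right) GC correction. Slc17a7 climbs from -0.77 to 0.87 across the left panel and from -0.31 to 0.49 across the right one. Slc17a6, Slc17a8, Slc6a13 and Slc38a1 keep most of their spread.

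Over the 6 samples, the 3 genes whose levels were most like each member's were also named, out of 12318 genes compared. These are descriptions on the log2 scale, and with 6 samples many genes come close. For Slc17a7 they were Caskin1, Srcin1 and Adgrb1 (Pearson r of 0.999, 0.999 and 0.998, transcripts of 60.8%, 59.2% and 63.6% GC), and 1309 genes reached an r of 0.9. For Slc17a6 they were Nkap, Smc2 and Bicd1 (r of 0.99 or more, 41.6%, 39.7% and 38.6% GC), with 268 genes at 0.9. Slc17a8 was closest to Strn, Vegfa and Gm38262 (44.7%, 50.9% and 37.9% GC), and Slc6a13 to 3300002I08Rik, Rassf2 and Dot1l (39.1%, 47.95% and 57.5% GC). An r of 0.9 was reached by 93 and 96 genes for these, by 101 for Slc38a1, 444 for Slc32a1 and 906 for Slc6a11. Slc32a1 was closest to Tmem28, Tmem138 and Cbfa2t3 (58.02%, 51.3% and 55.8% GC), and Slc6a11 to Hdgf, Rtl6 and Vmac (54.5%, 57.3% and 56.1% GC). Slc38a1 was closest to Zfp580, Cables1 and Rpl39-ps (65.0%, 59.7% and 45.7% GC). For Slc17a8, Slc6a13 and Slc38a1 the most alike genes thus lay on both sides of the member in GC content.

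Other genes of transmitter loading, uptake and metabolism were taken from a list of 34, of which 32 had a row and 26 passed the filter on low values. The cut-off was passed by 1 of the 26, higher in PND, and by 0 lower in PND, against 0.841% and 0.484% of all genes. An unadjusted p below 0.05 was found for the same gene only, against 3.13% of all genes. The groups did not overlap in that gene only, against 7.66% of all genes (3.78% with PND above CON). The gene was Slc6a17, which belongs by sequence to the plasma membrane transporters of the Slc6 family but is known to load neutral amino acids into synaptic vesicles. It was at 15.002, 10.8 and 16.1 FPKM in PND and at 4.65, 9.05 and 6.54 FPKM in CON. Every PND mouse lay above every CON mouse. Its log2 fold change was 1.07 (SE 0.26, 95% interval 0.45 to 1.68) with an unadjusted limma p of 0.00436 and an adjusted p of 0.9999. After GC correction it was 0.99, just under the fold limit of the cut-off, with an unadjusted limma p of 1.61e-05 and an adjusted p of 0.0585. That adjusted p was the smallest among 16 alternative fits. With GC correction and the replicate number as a covariate, the limma p was 0.000398 unadjusted and 0.804 adjusted. With that covariate alone the unadjusted limma p was 0.0144. The log2 fold change was likewise under the fold limit with a pseudocount of 1 (0.97), without PND replicate 3 (0.95) and without CON replicate 1 (0.83).

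The rest of the list had unadjusted p-values above 0.05. Glutamate uptake in astrocytes relies on Slc1a2 and Slc1a3, and these differed in steadiness. Slc1a3 averaged 62.9 ± 1.76 FPKM in PND against 61.1 ± 5.89 in CON. Slc1a2 ranged from 68.5 FPKM in CON replicate 1 to 367.5 FPKM in CON replicate 3, and its log2 fold change of -0.09 (SE 0.59) became -0.80 without CON replicate 1 (unadjusted limma p 0.0417, adjusted p 0.971). It turned positive without CON replicate 3 (0.41), PND replicate 1 (0.22) or CON replicate 2 (0.13). Glul, the astrocytic enzyme that makes glutamine, averaged 420.3 ± 24.8 FPKM in PND against 360.5 ± 44.0 in CON (log2 fold change 0.23, unadjusted limma p 0.0940). Slc6a12, Slc17a9, Slc18a1, Slc18a3, Slc6a3 and Slc6a5 were below the filter.

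**Figure D4:**
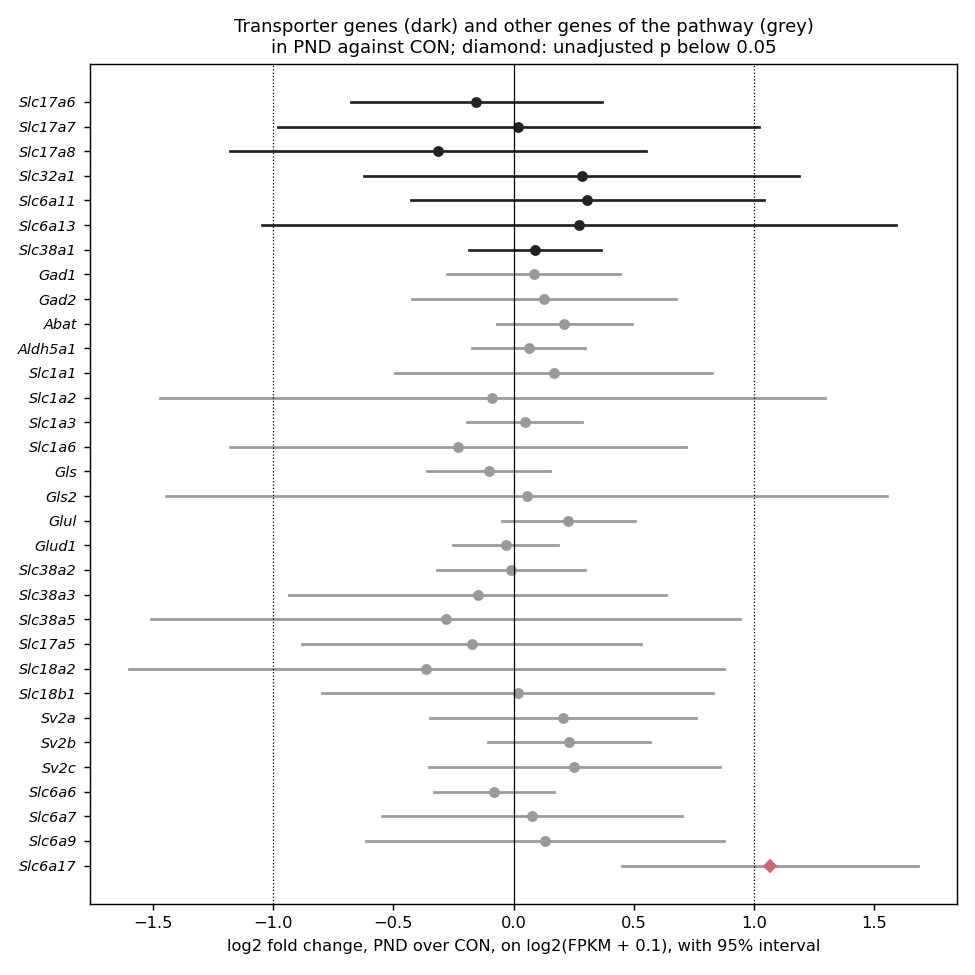
Log2 fold change of PND over CON with its 95% interval for the 7 transporter genes (dark) and 25 of the 26 tested genes of the pathway list (grey), with the solid line at 0 and dotted lines at -1 and 1. All 7 intervals of the transporter genes include 0, and Slc6a17 at 1.07 is the point marked by a diamond.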

How the data were processed

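Ribosomal RNA was removed from total RNA, libraries were sequenced on an Illumina instrument, and reads were filtered with Seqtk and mapped with Hisat2. Fragments were counted per gene with StringTie, scaled by TMM, the trimmed mean of M values, then deposited by the authors as FPKM, 1 column per mouse. The submitters' processing notes also list mm8, mm9 and Bowtie 0.12.2 with no role, and the build behind these values is not given in the sources used here. Symbols, positions, exon lengths and GC content (longest transcript) came from GENCODE M21 on GRCm38, where 20866 of 21006 identifiers were found. Groups followed the treatment labels.

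PND was compared with CON by limma 3.58.1 (R 4.3.3, eBayes with intensity trend, no covariate) on log2(FPKM + 0.1), a scale that understates changes of low genes. Correlations used SciPy 1.17.1. GC correction subtracted, per sample, a loess (span 0.5) of deviations on GC content. Depth was estimated from steps in FPKM times exon length, where between 41.6% and 44.7% of low values lay within 0.05 of a whole fragment, so fragment numbers are rough. Members, gene lists and tests were chosen with earlier results of these data known. Named genes were the members, list genes with an unadjusted p below 0.05, Gad1, Gad2, Slc1a2, Slc1a3, and the 3 most alike genes per member. Glul, the genes below the filter and the moved marker genes were added after their values were seen. Replicates are separate mice. Slc6a2 and Slc6a4 were not analysed here, and some genes of the lists are not reported here.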

Additional observations from a re-analysis of the deposited data

How the results depend on the processing

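Each member was refitted under 16 alternatives, and of the 112 values 100 kept their direction and their side of an unadjusted p of 0.05. The smallest limma adjusted p of a member was 0.831. Fits that kept all samples reversed 1 member, Slc17a7, at -0.064 with GC correction, alone or with the replicate block. Leaving out each sample in turn moved the log2 fold changes between -0.32 and 0.021 for Slc17a6 (reversed without PND replicate 3), -0.36 and 0.46 for Slc17a7 (reversed without PND replicate 3, CON replicate 1 or CON replicate 3), -0.73 and 0.010 for Slc17a8 (reversed without CON replicate 3), -0.11 and 0.53 for Slc32a1 (reversed without CON replicate 1), -0.036 and 0.60 for Slc6a11 (reversed without CON replicate 1), and -0.15 and 0.76 for Slc6a13 (reversed without PND replicate 1 or CON replicate 1). They ranged from -0.052 to 0.24 for Gad1, -0.14 to 0.32 for Gad2 and -0.80 to 0.41 for Slc1a2. The count of list genes past the cut-off, 1, was 0 with a pseudocount of 1, with GC correction, and with both GC correction and the block, or 0 to 1 with a sample left out. Over all genes the count of 241 became 25 with a pseudocount of 1, where changes of low genes shrink, and 59 when a mean of 1 FPKM was required, where fewer genes are tested. It ranged from 235 to 388 with a sample left out, the highest without CON replicate 2. The split of 153 higher and 88 lower in PND became 124 and 116 with quantile normalization, turned to 107 and 128 without PND replicate 3, and was 286 and 102 without CON replicate 2. Same-numbered samples did not deviate together: the correlations were -0.049, -0.451 and 0.027 for numbers 1 to 3, with a mean of -0.157. The mean for other pairs was 0.079. Since deviations were taken from group means, it follows from the same-numbered mean and adds no separate evidence. Of the 6 samples, 1 correlated best with its own number. With the replicate block 226 genes passed in place of 241, and no member's call changed. Depth limits Slc6a13 most, and the intervals of Slc17a7, Slc17a8, Slc32a1, Slc6a11 and Slc6a13 leave room for a change of 1 on the log2 scale.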
